A study of Mus musculus with 2 samples.

Results

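Slit1, Slit2 and Slit3 are secreted ligands, and Robo1, Robo2 and Robo3 are receptors of the same guidance system. The 6 genes were found by their symbols among the 32285 genes of both count matrices. The rule that picked them used no measured value, but earlier results of these data were known when it was set. The study released spatial barcodes from beads into the nuclei of a frozen section and then sequenced RNA from those nuclei with droplet chemistry. 2 libraries were used here, 1 from the brain of a male C57BL/6J mouse aged 56 days (a coronal section of 20 µm holding the hippocampus) and 1 from a whole C57BL/6J embryo at embryonic day 14 obtained from a supplier (a sagittal section through the brain, called E14 below). No transgene is named for either, and the adult mouse was perfused under isoflurane anaesthesia. Age, brain region, library, animal and software version all differed between the libraries and cannot be told apart.

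Slit proteins bind the extracellular immunoglobulin domains of Robo1 and Robo2. Growth cones or migrating neurons that carry such a receptor usually turn away from the source. Mammalian Robo3 does not bind Slit with high affinity. At the midline of the brain and spinal cord, Slits keep axons from crossing again, and Robo3 is known for its role in letting commissural axons cross. Inside the cell, Robo receptors act through srGAP proteins, Abl kinases, Nck and Sos adaptors and small GTPases, while heparan sulphate on the cell surface holds Slit near its receptor.

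Coordinates are those of GRCm38 with GENCODE vM21. Slit1 (ENSMUSG00000025020) lies at chr19:41600257-41743665 on the minus strand, Slit2 (ENSMUSG00000031558) at chr5:47983138-48307733 on the plus strand and Slit3 (ENSMUSG00000056427) at chr11:35121224-35708507 on the plus strand. Robo1 (ENSMUSG00000022883) at chr16:72308306-73046095 on the plus strand and Robo2 (ENSMUSG00000052516) at chr16:73891839-74411825 on the minus strand are neighbours on 1 chromosome, with 845743 bases between them. Robo3 (ENSMUSG00000032128) lies at chr9:37415669-37433246 on the minus strand 553 bases from Robo4, the family member of blood vessels. The gene lengths are 143 kb for Slit1, 325 kb for Slit2, 587 kb for Slit3, 738 kb for Robo1, 520 kb for Robo2 and 17.6 kb for Robo3. Since nuclear RNA is rich in introns and the counts include them, levels of different genes were compared per 100 kb of gene length, and where members are given as shares of their summed UMIs, the shares are of UMIs and not of transcripts.

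Slit2 and Slit3 each hold a microRNA gene whose mature product is the same, and the sequence is shown because it links the ligand loci to the receptors by sequence alone. Mir218-1 lies in intron 14 of the longest Slit2 transcript, with its mature sequence at chr5:48223966-48223986 on the plus strand. Mir218-2 lies in intron 14 of the longest Slit3 transcript, at chr11:35616840-35616860 on the plus strand. Both of those transcripts have 36 exons. The mature sequence from RefSeq (GRCm38.p6) is given with its seed, bases 2 to 8, in capitals.
miR-218-5p: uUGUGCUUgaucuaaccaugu

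The 7 bases complementary to that seed, AAGCACA, were searched on the transcript strand of the longest annotated 3′ UTR of each member. 4 of the 6 members held them. The windows below are 25 bases long, with the match in capitals.
Robo1, chr16:73045334-73045358, plus strand: ttttttggttttaaAAGCACAatca
Robo2, chr16:73895355-73895379, minus strand: ttttatttggtgatAAGCACAaatc
Robo2, chr16:73893029-73893053, minus strand: gtcacggcagacccAAGCACAgctt
Robo3, chr9:37416241-37416265, minus strand: cttgtgactcactgAAGCACActgt
Slit2, chr5:48304529-48304553, plus strand: gccaatactagcagAAGCACAtcta
Slit2, chr5:48306832-48306856, plus strand: gataattattagcaAAGCACAtaaa
In the Robo1 window and the first Robo2 window the match is followed by an A. The same 7 bases occurred in 2872 of 20886 longest 3′ UTRs of protein-coding genes (13.8%). Among UTRs within 1.5 times the same length, the share was 18.1% for Robo1, 34.6% for Robo2, 3.57% for Robo3 and 31.3% for Slit2. A match is a description and not a shown target site. The libraries were made from polyadenylated RNA, and the microRNA was not measured here.

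The adult library held 1661 barcodes, of which 1609 were kept, with 15346746 UMIs in all and a median of 6607 per nucleus. The E14 library held 9037 barcodes, of which 9036 were kept, with 58923882 UMIs and a median of 4204. Both libraries shared 1 barcode. A nucleus entered a class when at least 3 markers of 1 list were raised (at least 1 UMI and at least 2 times the library's level) and at least 2 more than for any other list. This left 1109 adult nuclei (68.9%) and 2095 E14 nuclei (23.2%) in a class, and the 10 adult and 12 E14 classes with at least 25 nuclei are described. A class name says only which marker list was raised. The adult classes were CA1 (149 nuclei), CA3 (37), dentate granule (279), inhibitory (30), thalamic (93), astrocyte (137), oligodendrocyte (248), oligodendrocyte precursor (29), microglia (44) and endothelial (49), so the 3 principal cell layers of the hippocampus were found, together with nuclei of the thalamic list. The E14 classes were dorsal radial glia (190), cortical excitatory (168), interneurons with Lhx6 (355), ventral forebrain with Lhx8 (110), thalamic (460), hypothalamic (41), Cajal-Retzius (116), cortical hem or roof plate (54), choroid plexus (62), fibroblast or mesenchyme (244), endothelial (149) and microglia or macrophage (69). Depth differed between classes, with a median of 18809 UMIs in CA1 and 2252 in adult microglia, so shares of nuclei are given mainly after thinning. With 1 library per group there is no replicate check, so no test was run. Levels are UMIs per 1000000 UMIs of the class (CPM), with 95% exact Poisson intervals in parentheses, and shares of nuclei have 95% exact binomial (Clopper-Pearson) intervals. Both cover counting error only, and nuclei of 1 section are not replicates.

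Among the ligands, the adult section held Slit1 and Slit3 in the principal neurons of the hippocampus and Slit2 mostly in CA3. Slit1 was at 393 CPM (348 to 441) in CA3, 364 CPM (345 to 384) in dentate granule nuclei and 242 CPM (224 to 260) in CA1. The CA3 and dentate intervals overlapped, and CA1 lay below both. In the other adult classes Slit1 was at 207 CPM in microglia, 120 in oligodendrocyte precursors, 29.3 in oligodendrocytes, 25.9 in astrocytes, 18.0 in inhibitory neurons, 8.50 in thalamic neurons and 6.86 in endothelial nuclei. Of the microglial and oligodendrocyte precursor Slit1 UMIs, 91.7% and 96.2% lay in 5 nuclei of each class.

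Slit2, the ligand best known from the floor plate and from commissural axon repulsion, was at 282 CPM (245 to 324) in CA3, with UMIs in 30 of 37 nuclei (81.1%). The next class, dentate granule, was at 48.2 CPM, and 27.6% of its nuclei had a UMI. CA1, which lies beside CA3, was at 2.77 CPM, or 8 UMIs in 8 of 149 nuclei. CA3 and CA1 thus stood at the top and near the bottom of the adult order for this ligand. The remaining adult classes were at 40.3 CPM in microglia, 38.2 in inhibitory neurons (17 UMIs in 3 nuclei), 23.1 in oligodendrocyte precursors, 10.3 in endothelial nuclei, 6.47 in astrocytes, 4.34 in oligodendrocytes and 0.708 in thalamic neurons. From dentate granule down, each class overlapped the next in this order.

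Slit3, a ligand also known from tissues outside the brain, had its highest adult level in the dentate gyrus. It was at 1802 CPM (1759 to 1846) in dentate granule nuclei, 1441 CPM (1398 to 1486) in CA1, 1005 CPM (933 to 1080) in CA3 and 689 CPM (647 to 734) in thalamic neurons. These 4 intervals did not overlap. After each nucleus was thinned to 1000 UMIs, 76.3% of dentate granule, 69.2% of CA1, 51.4% of CA3 and 45.7% of thalamic nuclei still had a Slit3 UMI. Adult inhibitory neurons were at 13.5 CPM and endothelial nuclei at 13.7 CPM. Per 100 kb of gene length, Slit3 was at 307 CPM and Slit1 at 254 CPM in dentate granule nuclei. In CA1 they were at 245 and 169 CPM, and in thalamic neurons at 117 and 5.93 CPM. Among these 4 classes, only CA3 had the order turned, with Slit1 at 274 CPM and Slit3 at 171 CPM. Slit2 was lowest on that scale in each of these classes, at 14.9 CPM per 100 kb in dentate granule, 0.854 in CA1, 0.218 in thalamic and 87.0 in CA3 nuclei.

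**Figure D1:**
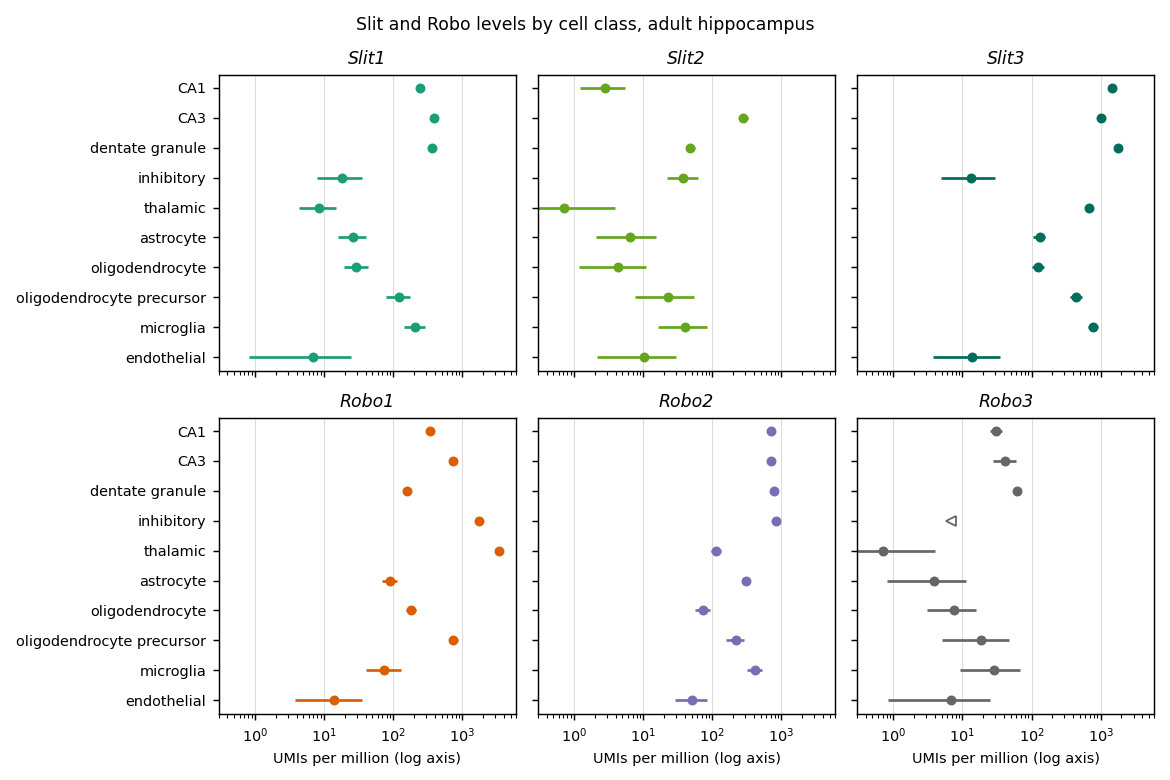
Level of each Slit and Robo gene in the 10 adult classes, in CPM on a log axis; points are class sums, bars are exact Poisson intervals of counting error, and the open triangle marks a class with 0 UMIs at the level of 3 counts. Slit2 stands out in CA3 at 282, Robo1 in thalamic neurons at 3431, and Robo2 is spread over the hippocampal neurons at 696 to 844.

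The ligand sums of adult glia came from few nuclei. In microglia, Slit3 was at 783 CPM, but its 136 UMIs lay in 7 of 44 nuclei, and 94.9% of them lay in 5 nuclei. In the 37 microglia of that class's leading cluster, 1 Slit3 UMI was found, or 11.4 CPM (0.290 to 63.7). The same nuclei had 1 Slit1 UMI (11.4 CPM) and 0 UMIs of Slit2 and Robo3, so the microglial UMIs of these members too lay, but for 1, in the other nuclei of the class. The leading cluster held 84.1% of the microglia class. Another 11.4% lay in a cluster that the same marker lists named dentate granule, with Stxbp6, Trpc6, Glis3 and Rfx3 among its leading genes. The 5 oligodendrocyte precursor nuclei with Slit3 held 97 UMIs (447 CPM), and the top 5 nuclei held 88.1% of the astrocyte UMIs (131 CPM) and 85.2% of those in oligodendrocytes (125 CPM). All 8 markers of dentate granule neurons were found in each adult glial class and in endothelial nuclei. Their summed level was 31.9% of the dentate class in microglia, 31.1% in oligodendrocyte precursors, 28.4% in astrocytes, 22.8% in oligodendrocytes and 18.2% in endothelial nuclei. In microglia 5 of the 7 CA1 markers were found, at 26.7% of the CA1 class, with Fibcd1 and Spink8 at 0. The CA1 markers stood at 4.05% in oligodendrocyte precursors, 14.9% in astrocytes, 17.5% in oligodendrocytes and 16.5% in endothelial nuclei. The dentate list thus had the order of the Slit3 levels over these classes, in a narrower range, and the CA1 list did not. A list of 8 neuronal genes outside the marker lists, chosen after seeing the data, was at 27.8% of its highest class in microglia, 27.4% in oligodendrocyte precursors, 14.2% in astrocytes, 7.68% in endothelial nuclei and 7.64% in oligodendrocytes, with none of the 8 at 0. The part of neuronal RNA in the glial levels was not tested.

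In the E14 brain the highest ligand levels were in choroid plexus, hem or roof plate, cortical excitatory neurons and Cajal-Retzius cells, the Reln-producing cells of the cortical surface. Slit1 was at 258 CPM (222 to 298) in Cajal-Retzius nuclei and between 49.6 CPM (endothelial) and 153 CPM (Lhx8 ventral forebrain) in the others. In between were the Lhx6 interneurons at 139 CPM, cortical excitatory neurons at 134, hypothalamic at 124, hem or roof plate at 87.1, dorsal radial glia at 72.5, thalamic at 58.8, fibroblasts at 58.4, microglia or macrophages at 54.8 and choroid plexus at 49.7. Only the Cajal-Retzius interval was apart from its neighbour in this order, and the level was 126 CPM in the 56 nuclei of the cluster led by Trp73, the p53 relative that marks these cells, against 339 CPM in the other 60.

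Slit2 was at 1053 CPM (991 to 1118) in choroid plexus, the epithelium that makes cerebrospinal fluid, and at 1027 CPM (953 to 1104) in hem or roof plate, with overlapping intervals. Both classes had the same leading cluster, with 91.9% of the choroid plexus and 72.2% of the hem or roof plate nuclei. Of the 62 choroid plexus nuclei, 58 had a Slit2 UMI (93.5%), and 5 nuclei held 43.4% of the UMIs. Dorsal radial glia, the progenitors of the cortex, followed at 625 CPM, then Cajal-Retzius cells at 431, hypothalamic neurons at 374 (562 in the leading cluster of that class) and Lhx8 ventral forebrain at 326. The other classes lay between 186 CPM in cortical excitatory neurons and 254 in fibroblasts, with endothelial nuclei at 251, microglia or macrophages at 234, thalamic neurons at 201 and Lhx6 interneurons at 190. As shares of UMIs, not scaled by gene length, Slit2 was 80.6% of all Slit UMIs in dorsal radial glia and 73.6% in hem or roof plate, whereas Slit3 was 85.5% of them in adult CA1 and 98.7% in adult thalamic neurons.

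Slit3 in the E14 brain was at 693 CPM (643 to 746) in choroid plexus and 635 CPM (599 to 673) in cortical excitatory neurons. Hem or roof plate followed at 281 CPM, hypothalamic neurons at 165 and microglia or macrophages at 121, and the other classes lay from 40.5 CPM in thalamic neurons to 88.5 in fibroblasts. Among the latter were dorsal radial glia at 78.2, Lhx6 interneurons at 63.9, Cajal-Retzius at 61.9, endothelial at 55.3 and Lhx8 ventral forebrain at 48.0. Between the cortical progenitors and the cortical excitatory neurons the ligands thus went different ways. Slit3 was at 78.2 (66.7 to 91.3) and 635 CPM (599 to 673), and Slit1 at 72.5 (61.3 to 85.0) and 134 (118 to 152). Slit2 was at 625 (592 to 661) and 186 (166 to 207). In the leading cluster of each class, Slit3 was at 17.1 CPM in dorsal radial glia and 11.7 in thalamic neurons.

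**Figure D2:**
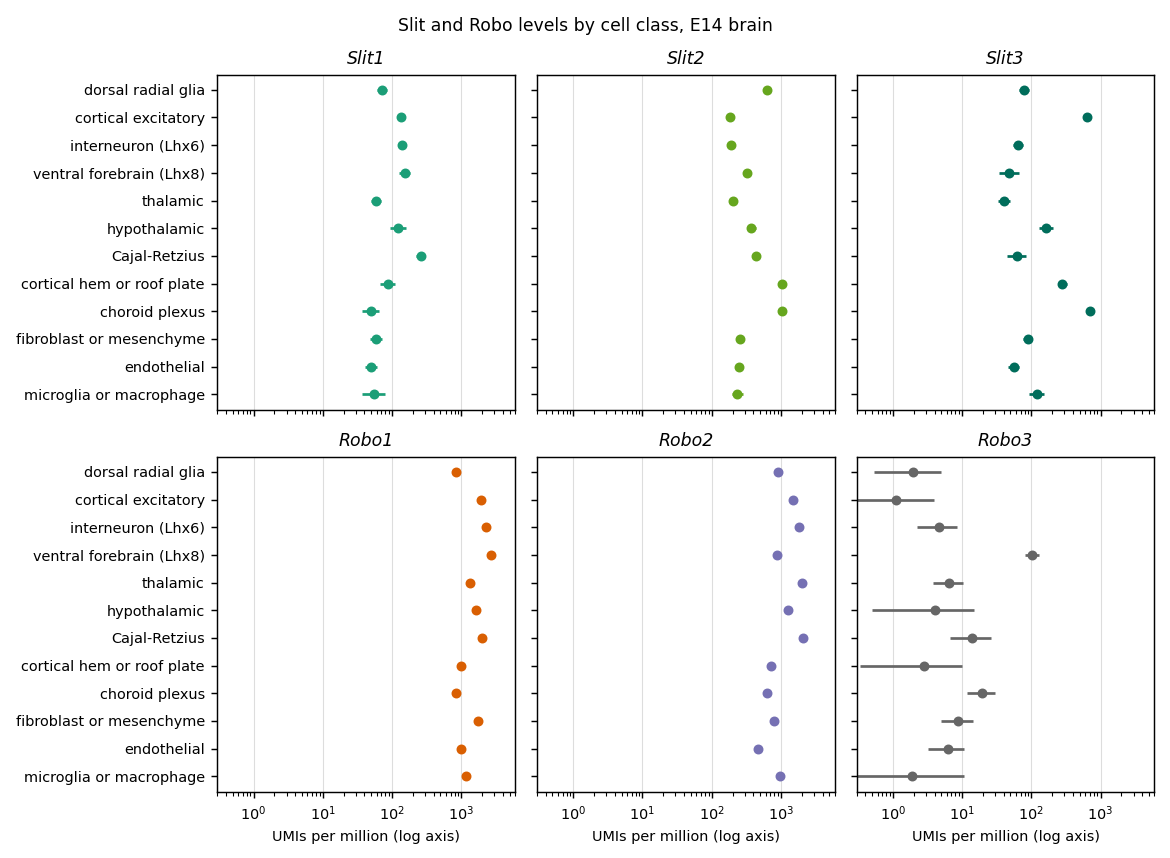
Level of each Slit and Robo gene in the 12 E14 classes, in CPM on a log axis, drawn as for the adult library. Slit2 is highest in choroid plexus (1053) and hem or roof plate (1027), Robo1 in the Lhx8 class (2727), and Robo3 stays below 20 outside that class.

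The receptor Robo1 was highest in adult thalamic neurons, at 3431 CPM (3335 to 3529), and at 3460 CPM without a cluster of 24 nuclei of low UMI counts. Inhibitory neurons followed at 1757 CPM (1636 to 1885), with 117 UMIs in a single nucleus and 49.9% of the UMIs in 5 of 30 nuclei. Oligodendrocyte precursors at 743 CPM and CA3 at 737 CPM overlapped, and CA1 was at 338, oligodendrocytes at 181, dentate granule at 160, astrocytes at 89.2, microglia at 74.8 and endothelial nuclei at 13.7. In contrast to Slit3, Robo1 in oligodendrocyte precursors was spread over 23 of 29 nuclei. After thinning to 1000 UMIs, 77.8% of thalamic, 62.1% of inhibitory, 54.1% of CA3, 51.7% of oligodendrocyte precursor, 28.1% of CA1 and 13.1% of dentate granule nuclei had a Robo1 UMI. Within oligodendrocytes, the cluster with Enpp6, a gene of newly formed cells, was at 430 CPM in 34 nuclei and the Ptgds cluster at 130 CPM in 202 nuclei.

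Robo2 had a different adult order. Inhibitory neurons at 844 CPM (760 to 933) and dentate granule neurons at 775 CPM (747 to 804) overlapped, and CA1 at 698 and CA3 at 696 followed. Microglia were at 409 CPM, astrocytes at 305, oligodendrocyte precursors at 217, thalamic neurons at 114, oligodendrocytes at 72.8 and endothelial nuclei at 51.4. In thalamic neurons, where Robo1 was highest, Robo2 UMIs were found in 6.17% of nuclei thinned to 1000 UMIs. Of the microglial Robo2 UMIs, 94.4% lay in 5 nuclei, and in the 37 nuclei of the leading cluster the level was 34.3 CPM.

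At E14, Robo1 was at 2727 CPM (2610 to 2847) in Lhx8 ventral forebrain, the highest of the classes, 2275 (2211 to 2339) in Lhx6 interneurons, 1997 in Cajal-Retzius cells and 1939 in cortical excitatory neurons. Lower levels were found in fibroblasts at 1725, hypothalamic neurons at 1614, thalamic neurons at 1333, microglia or macrophages at 1158, endothelial nuclei at 1003, hem or roof plate at 989, choroid plexus at 848 and dorsal radial glia at 833. Dorsal radial glia, the cortical progenitors, were thus lowest of the 12 classes, overlapping choroid plexus, and the Lhx8 and Lhx6 classes the highest, and 83.0% and 65.5% of thinned Lhx8 and Lhx6 nuclei had a UMI against 31.7% in dorsal radial glia. In the leading cluster of the dorsal radial glia, Robo1 was at 447 CPM. Clusters made over all E14 nuclei reached above every class, with Robo1 at 4773 CPM in one of 219 nuclei whose leading genes included Tenm1 and Ndst4. In the non-neuronal E14 classes, the neuronal genes outside the lists reached 15.5% (dorsal radial glia) to 31.4% (microglia or macrophages) of the Lhx6 class, and none of the 8 was at 0. Among the other neuronal classes they were at 88.8% in Lhx8 ventral forebrain. They were at 32.1% in hypothalamic, 29.0% in Cajal-Retzius, 28.9% in thalamic and 26.4% in cortical excitatory nuclei. These genes therefore did not set all neuronal E14 classes apart from the non-neuronal ones. Their part in the Robo levels of the non-neuronal classes was not tested. In microglia or macrophages 67.5% of the Robo1 UMIs lay in 5 of 69 nuclei, and the 26 nuclei of the microglial cluster had Robo1 at 396 CPM.

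Robo2 at E14 was at 2093 CPM (1988 to 2202) in Cajal-Retzius cells and 2007 CPM (1953 to 2062) in thalamic neurons, which overlapped. Lhx6 interneurons were at 1852, cortical excitatory neurons at 1473, hypothalamic neurons at 1268, microglia or macrophages at 964, dorsal radial glia at 905, Lhx8 ventral forebrain at 890, fibroblasts at 793, hem or roof plate at 716, choroid plexus at 629 and endothelial nuclei at 462. Within Cajal-Retzius nuclei the receptors split by cluster. The 56 nuclei of the Trp73 cluster had Robo2 at 3332 CPM and Robo1 at 853, and the other 60 had Robo2 at 1330 and Robo1 at 2701. The split was drawn after seeing the data, and the 90 nuclei with a Trp73 UMI had Robo2 at 2286 CPM and Robo1 at 1818.

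The balance of both receptors can be read within a nucleus class from their UMIs alone. Robo1 made up 96.8% (96.3 to 97.3) of Robo1 and Robo2 UMIs in adult thalamic neurons and 17.1% (15.9 to 18.4) in dentate granule neurons. Other adult shares were 77.4% in oligodendrocyte precursors, 71.4% in oligodendrocytes, 67.6% in inhibitory neurons, 51.4% in CA3, 32.6% in CA1, 22.6% in astrocytes, 21.1% in endothelial nuclei and 15.5% in microglia. The interval lay above 50% in 4 of 10 adult classes, below it in 5 and across it in CA3. The E14 classes ran from 39.9% (38.9 to 41.0) in thalamic neurons to 75.4% in Lhx8 ventral forebrain, with 9 of 12 intervals above 50%, 2 below and 1 across. Groups of nuclei drawn after seeing the data reached farther: Robo1 was 20.4% (18.1 to 22.9) in the Cajal-Retzius nuclei of the Trp73 cluster, 100% (234 of 234 UMIs, 98.4 to 100) in the Lhx8 nuclei of the cluster led by Ano1 and Trpc4, and 96.7% (95.5 to 97.6) in all 147 nuclei of that cluster. The span of the E14 classes is therefore not that of the clusters within them. Since Robo1 is the longer gene, these are shares of UMIs and not of transcripts. Per 100 kb, adult thalamic neurons had Robo1 at 465 CPM and Robo2 at 21.9, and dentate granule neurons had 21.7 and 149.

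**Figure D3:**
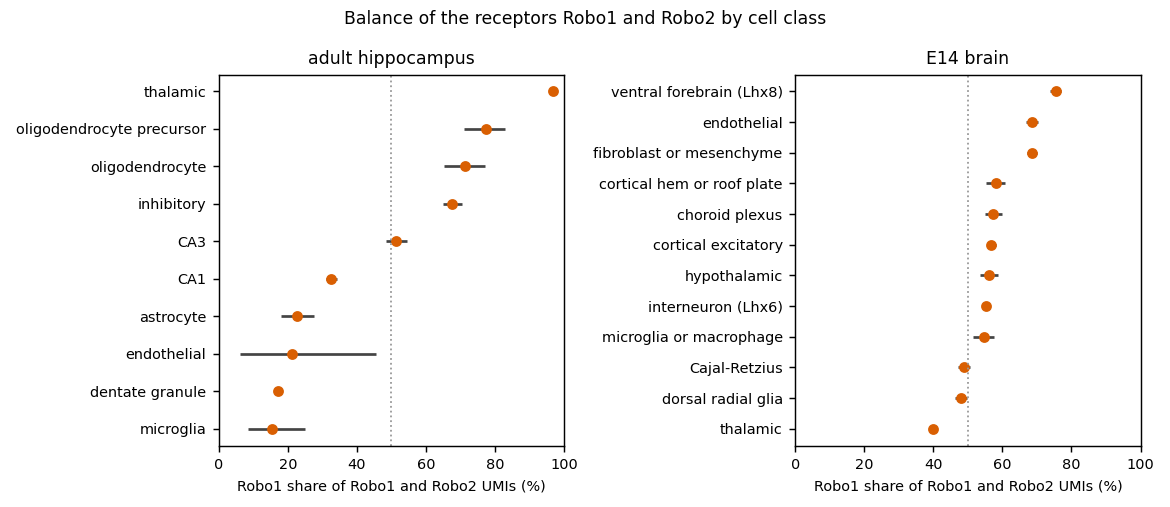
Robo1 as a percentage of Robo1 and Robo2 UMIs in each class, with 95% exact binomial intervals and a dotted line at 50%; classes are ordered by their share in each library. Adult classes run from 15.5% to 96.8% and E14 classes from 39.9% to 75.4%.

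Robo3, the receptor linked to midline crossing, was at 32.8 CPM over all adult nuclei and 10.2 CPM over all E14 nuclei, or 187 and 58.1 CPM per 100 kb of its short gene. In the adult it was at 61.4 CPM (53.7 to 69.8) in dentate granule neurons, with UMIs in 133 of 279 nuclei, at 41.3 in CA3, 30.8 in CA1, 28.8 in microglia, 18.5 in oligodendrocyte precursors, 7.60 in oligodendrocytes, 6.86 in endothelial nuclei, 3.88 in astrocytes and 0.708 in thalamic neurons. Inhibitory neurons had 0 UMIs, which allows up to 6.75 CPM (3 counts). Per 100 kb, Robo3 was at 349 CPM in dentate granule neurons and Robo2 at 149 CPM. Without that scaling, Robo3 was at 61.4 CPM and Robo2 at 775, so the order rests on the division by gene length. Whether UMIs grow in proportion to gene length was not tested.

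At E14, Robo3 was at 103 CPM (80.9 to 128) in Lhx8 ventral forebrain, where 77 UMIs lay in 25 of 110 nuclei with at most 8 in 1 nucleus. The next classes, choroid plexus at 19.5 CPM and Cajal-Retzius cells at 14.1 (10 UMIs in 4 nuclei), did not overlap it. All other E14 classes lay between 1.10 CPM in cortical excitatory neurons and 8.85 in fibroblasts. The Lhx8 level was 124 CPM in the 59 nuclei of the cluster led by Adarb2 and Gbx1 and 44.0 CPM (5 UMIs) in the 21 nuclei of the cluster led by Ano1 and Trpc4. That smaller cluster had Robo1 at 2060 CPM and no Robo2 UMI, whereas the larger had Robo2 at 1137 CPM. Both clusters were looked at after seeing the data.

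To set ligand against receptor classes, each member was scaled to its own highest class in the library and averaged over the 3 Slits and over Robo1 and Robo2. Robo3 was kept apart because it does not bind Slit with high affinity. In the adult section CA3 had a mean of 85.2% for the Slits and 52.0% for the receptors, dentate granule neurons 69.9% and 48.3%, and CA1 47.5% and 46.3%. Inhibitory neurons were at 6.29% and 75.6% and thalamic neurons at 13.6% and 56.8%, so the excitatory hippocampal classes held both and these 2 classes held mainly receptors. Microglia, whose sums rested on few nuclei, completed the 4 adult classes with a ligand mean above the receptor mean. At E14, choroid plexus had 73.1% for the Slits and 30.6% for the receptors, and hem or roof plate 57.3% and 35.2%. These were the 2 E14 classes in which the ligand mean was above the receptor mean. The neuronal classes ran the other way, with 53.8% and 70.8% in cortical excitatory neurons, 49.9% and 86.6% in Cajal-Retzius cells, 27.1% and 85.9% in Lhx6 interneurons, 32.5% and 71.3% in Lhx8 ventral forebrain and 15.9% and 72.4% in thalamic neurons.

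Members were also counted in the same nuclei after thinning to 1000 UMIs. The share of nuclei with both members was compared with the product of their single shares for every class and pair. The product lay inside the interval of the observed share in 145 of 150 adult cases and 178 of 180 E14 cases. In dentate granule neurons 41.2% of nuclei had Slit3 and Robo2, with a product of 40.6%, and in Lhx6 interneurons 43.6% had Robo1 and Robo2, with a product of 40.0%. Ligand and receptor were thus found in the same dentate granule nuclei about as often as their single shares give. In E14 cortical excitatory neurons, 8.93% (5.08 to 14.3) had Slit3 and Robo2, below the product of 15.4%, and at 2000 UMIs the values were 12.0% and 21.4%. Of the 150 adult and 180 E14 cases, this was the only one whose whole interval lay below the product. The 5 adult cases with an interval above the product were pairs with Slit3 in astrocytes and oligodendrocytes, each resting on 1 to 4 nuclei. The other E14 case was Slit2 and Slit3 in 4 Lhx6 nuclei (1.17% against 0.281%).

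2 class names, thalamic and endothelial, occurred in both libraries with at least 25 nuclei (93 adult and 460 E14 thalamic, 49 and 149 endothelial). The endothelial marker list was the same in both libraries. The thalamic list was not: of its 8 genes, only Tcf7l2, Lef1, Slc17a6 and Ntng1 were used in both. The thalamic ratios therefore compare classes that share a name but were drawn with partly different markers. A difference of at least 2-fold was called for genes with at least 20 UMIs over both classes. Of the 5 thalamic members that could be called, 2 were higher in the adult library, where 16.0% of 12485 genes were, and 3 were higher at E14, where 23.1% were. Slit3 was at 689 CPM in the adult and 40.5 at E14, a ratio of 17.0 (13.9 to 21.0), and Robo1 was at 3431 and 1333, a ratio of 2.57 (2.46 to 2.69). Robo2 was at 114 and 2007 CPM, 17.6-fold higher at E14 (15.0 to 20.7). Hence Robo1 and Robo2 differed in opposite directions. Slit1 was 6.91-fold higher at E14 (3.85 to 13.7), at 58.8 CPM against 8.50. Slit2 was at 201 CPM at E14 against 1 UMI (0.708 CPM) in the adult, a ratio of 284 with an interval from 50.7 to 11235. Robo3 had 1 and 17 UMIs and was not called. In the leading cluster of each class alone, the Slit3 ratio was 58.4 and the Robo1 ratio 3.67.

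In endothelial nuclei all 5 members that could be called were higher at E14, where 23.7% of 11899 genes were called in that direction and 15.6% in the other. Robo1 was at 13.7 CPM in the adult and 1003 at E14, a 73.1-fold difference (28.5 to 269), but the adult value was 4 UMIs. Slit2 was at 10.3 CPM and 251 (24.4-fold, 8.28 to 118), Robo2 at 51.4 and 462 (8.98-fold, 5.41 to 16.1), Slit1 at 6.86 and 49.6 (7.23-fold, 1.95 to 60.6, 2 adult UMIs) and Slit3 at 13.7 and 55.3 (4.03-fold, 1.53 to 15.1, 4 adult UMIs). The intervals of Slit1 and Slit3 thus reached below the 2-fold by which they were called. In the leading clusters alone the Slit3 ratio of adult over E14 was 0.481, against 0.248 in the whole classes, and Slit1 had 0 adult UMIs. Robo3 was at 6.86 CPM (2 UMIs) and 6.20 (12 UMIs). The neuronal genes outside the lists stood at 7.68% of the adult inhibitory class in adult endothelial nuclei and at 18.1% of the Lhx6 class in those at E14, and their part in these ratios was not tested.

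**Figure D4:**
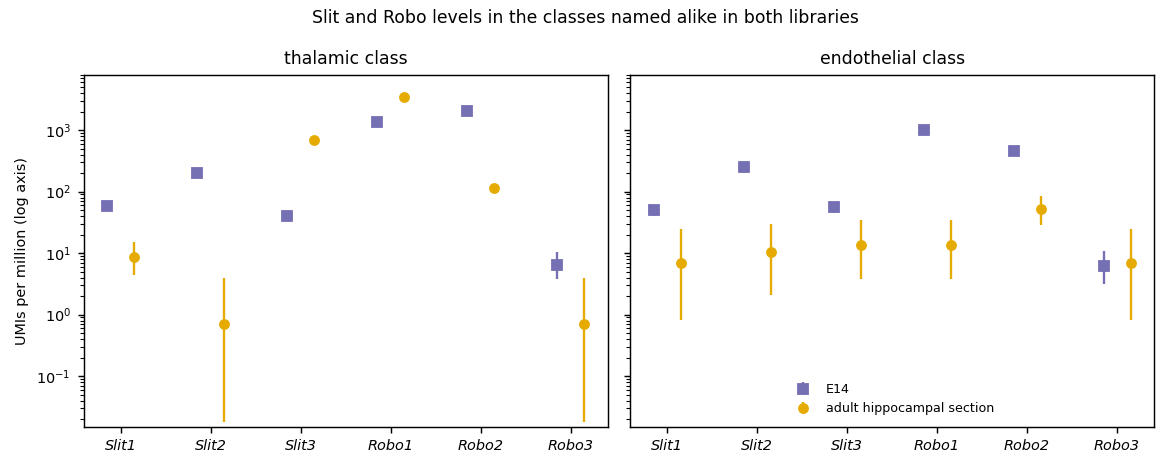
Level of each member in the thalamic and endothelial classes of both libraries, in CPM on a log axis, with exact Poisson intervals; squares are E14 and circles the adult hippocampal section. In thalamic nuclei Robo1 is 3431 in the adult and 1333 at E14, while Robo2 is 114 and 2007.

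The rest of the pathway was read from a list of 30 genes. In thalamic nuclei 29 could be called, of which 3 were higher in the adult library (16.0% of all genes were) and 10 at E14 (23.1%), with a median log2 ratio of adult over E14 of -0.29 against -0.14 over all genes called. The adult-higher genes were Nell1 at 1539 and 86.6 CPM, Nell2, from a family of secreted proteins with Robo ligands, and Ndfip1, an adaptor of ubiquitin ligases, with log2 ratios of 4.15, 1.09 and 1.07. Among those higher at E14 were Dcc, the netrin receptor that Robo signalling silences, with a log2 ratio of -4.12, and the Robo effectors Srgap3 (-2.53), Srgap1 (-1.60) and Srgap2 (-1.27). Nck2 (-2.20), the heparan sulphate enzymes Ext1 (-1.87) and Hs2st1 (-1.06), Plxna1 (-1.76), Sos2 (-1.29) and Arhgap39 (-1.13) completed them. In endothelial nuclei all 30 could be called, 3 higher in the adult (Robo4, Sos2 and Rhoa, with log2 ratios of 1.10, 1.35 and 1.44, against 15.6% of all genes) and 12 at E14 (against 23.7%), with a median of -0.59 against -0.16.

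By class, 11 of the 30 genes (36.7%) had their highest adult level in 1 of the 4 classes that were also highest for a member, against 26.6% of 16282 genes with at least 20 UMIs. CA3, highest for Slit1 and Slit2, was also highest for Dcc at 2607 CPM, Srgap3 at 602, Flrt3 at 256, Abl2 at 219 and Nck2 at 97.8. Adult thalamic neurons, highest for Robo1, were also highest for Nell1 at 1539 CPM, Ndfip1 at 579, Enah at 526 and Gpc1 at 51.0. The intervals of Nck2, Ndfip1 and Gpc1 overlapped that of the next class. Usp33, a deubiquitinase that binds Robo1, was highest in inhibitory neurons at 144 CPM, with oligodendrocytes at 142, and Hs2st1 was at 196 in dentate granule neurons and 194 in oligodendrocyte precursors, so neither could be told from its next class. At E14 this was so for 4 of the 30 (13.3%), against 24.6% of 19982 genes: Dcc at 7490 CPM and Nell1 at 348 in Lhx8 ventral forebrain, with Robo1 and Robo3, and Dag1 at 161 and Sos1 at 153 in choroid plexus, with Slit2 and Slit3. The intervals of these E14 levels, other than that of Dcc, overlapped the next class. Robo4 was highest in endothelial nuclei in both libraries, at 78.9 CPM in the adult and 36.7 at E14.

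For each member, the 3 genes with the most similar profile across classes were named by Pearson's r of log2(CPM + 1). This is a description over 10 adult or 12 E14 classes that share a library and differ in depth. In the adult they were Kcnip2 (0.99), Apobec4 (0.97) and Sipa1l3 (0.97) for Slit1, Rerg (0.90), Nudt5 (0.89) and Nrp2 (0.88) for Slit2, and Gm10115 (0.96), Gm12027 (0.93) and Galnt17 (0.93) for Slit3. Strbp (0.96), Rnft2 (0.95) and Ctnna2 (0.94) were nearest to Robo1, Gria1 (0.98), Klhl29 (0.96) and Cacng8 (0.95) to Robo2, and Anxa11 (0.98), Synpo (0.96) and Baiap2 (0.95) to Robo3. At E14 the nearest genes were Ptprs (0.92), Dscaml1 (0.91) and B230217C12Rik (0.88) for Slit1, Gm47958 (0.91), Tead1 (0.90) and Ifrd1 (0.89) for Slit2, and Nr4a3 (0.83), Adamtsl1 (0.83) and Calcoco1 (0.79) for Slit3. For the receptors they were Tnrc6c (0.92), Chfr (0.90) and C630031E19Rik (0.90) for Robo1, Meis3 (0.92), Sycp2 (0.90) and Samd14 (0.90) for Robo2, and Hibch (0.87), Tmem17 (0.87) and Klhdc8b (0.86) for Robo3. Among the members themselves, Slit1 and Robo3 had r = 0.87 over the adult classes, and Slit2 and Robo1 had r = -0.57 over the E14 classes.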

How the data were processed

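The deposited files were unnormalized UMI count matrices that the authors made with Cell Ranger, whose version the file headers give as 6.1.2 (hippocampus) and 7.0.1 (embryo), on mm10 with intronic reads included. The study's methods name CellBender 0.2.0 for the embryo, while the header of the matrix used here is that of Cell Ranger. Nuclei with at least 500 UMIs and at most 5% mitochondrial UMIs were kept. Totals and medians stand in the report. UMIs were summed per class and scaled to 1000000. Clusters (Scanpy 1.11.5, leidenalg 0.10.2; 2000 variable genes without the members, 30 components, 20 neighbours, resolution 1.5) served only to check the classes. The highest Scrublet scores, 0.8% per 1000 nuclei (21 adult and 653 E14 nuclei), were kept in the reported values and removed in an alternative. The ranking by correlation used genes with at least 200 UMIs. Intervals were computed with SciPy 1.17.1.

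The members and the lists were chosen with earlier results of these data known, and the rule that turns marker UMIs into classes was chosen after seeing the data, as were the neuronal gene list and the subsets by cluster. The genes named are the 6 members, pathway genes at least 2-fold apart between adult and E14 or highest in the same class as a member, the 3 genes most like each member, and the genes that define a class. A planned comparison of the proteins was not run, and a planned split of the CA1 nuclei is not reported here. Spatial positions were not used here.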

Additional observations from a re-analysis of the deposited data

How the results depend on the processing

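The class with the highest level was recomputed for the 12 pairs of member and library. It was the reported class in all 12 with 1 fewer or 1 more marker, a minimum of 2000 UMIs, a maximum of 1% mitochondrial UMIs, or without Malat1 and mitochondrial UMIs, in 11 with means over nuclei, in 10 with the highest doublet scores removed, and in 9 in the leading cluster of each class, an alternative added after seeing the data. There the E14 ligands changed: Slit1 was highest in Lhx6 interneurons (148 CPM against 126 in Cajal-Retzius), Slit2 in hem or roof plate (1221 against 1074 in choroid plexus) and Slit3 in cortical excitatory neurons (771 against 708). With clusters named from the same lists it was 7 of 12: adult Robo2 was then highest in dentate granule nuclei (801 CPM against 757 in inhibitory), and at E14 Slit1 was highest in the Lhx8 class (239), Slit2 in hem or roof plate (1048), Slit3 in cortical excitatory neurons (898) and Robo1 in Lhx6 interneurons (2309 against 1960 in the Lhx8 class). No cluster took the choroid plexus name. The cluster named hem or roof plate held 91.9% of the choroid plexus class and 72.2% of the hem or roof plate class. Choroid plexus was its most frequent class, with 57 nuclei, so the Slit2 change there is one of name. With doublet scores removed, E14 Robo2 was highest in thalamic neurons (2047 CPM against 1966 in Cajal-Retzius). The causes were not tested. In leading clusters alone, E14 dorsal radial glia had Robo1 at 447 CPM, against 833 in the whole class. Of 132 levels, 0 moved beyond their interval with 1 fewer marker, 26 without the highest doublet scores, 57 in the leading clusters and 62 with means over nuclei, and of the 126 that could be recomputed, 10 moved with 1 more marker and 55 with named clusters. No paired analysis was possible because each group is 1 library. Classes of 29 to 49 nuclei and levels under about 20 UMIs limit what can be read.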

Other observations

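Many E14 nuclei fell into no class, and the clusters, which were made without the members, held higher levels than any class for some of them. Slit2 was at 1867 CPM in a cluster of 54 nuclei led by Wnt8b, Tnc and Ltbp1. Robo1 was at 4773 CPM and Slit1 at 334 CPM in a cluster of 219 nuclei whose leading genes included Tenm1 and Ndst4, and Robo1 was at 3160 CPM in a cluster of 372 nuclei led by Adarb2 and Lhx8, against 2727 in the highest class. Robo2 was at 2800 CPM in a cluster of 159 nuclei led by Lmx1b and Ebf2. Slit1 was at 312 CPM in a cluster of 379 nuclei with Top2a, Mki67 and Ntn1. In the adult section, a cluster of 19 nuclei with Reln, Igfbpl1 and Sox11 had Robo1 at 1699 CPM and Robo2 at 1107. These clusters were looked at because of their values, so the levels are a description, and none of the clusters is given a cell type here.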
